A study of Mus musculus with 17 samples.

Results

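The genes described here are the amino acid transporter families of the mouse kidney: protein-coding genes of the Slc1, Slc3, Slc6, Slc7, Slc36, Slc38 and Slc43 families, leaving out Slc38a3 and Slc7a13, with at least 10 counts in 6 or more of 17 libraries. The count table held 67 genes whose symbols carry these prefixes, of which 64 were protein-coding. Of these, 2 were left out by the rule and 25 had too few counts, 8 of them without any count, so that 37 members remained among 55487 gene identifiers. The members came from the Slc6 family (12 genes), Slc7 (8), Slc38 (6), Slc1 (5), Slc3 (2), Slc36 (2) and Slc43 (2). One of them, Slc7a6os, carries the prefix because it lies beside Slc7a6 on the opposite strand, and is not a transporter.

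Kidney tissue of male mice aged 16 weeks on the BKS background was compared, with 9 db/db animals set against 8 db/m animals. The db/db animals carry 2 mutant copies of the leptin receptor gene Lepr and become obese and diabetic. The db/m animals are lean and carry 1 mutant Lepr copy, so neither group is free of the Lepr mutation. The library names number the db/db libraries after all db/m libraries, so an effect of that order and of the group cannot be told apart. Loss of leptin receptor signalling is body-wide, so effects that arise in the kidney and effects of obesity and diabetes cannot be told apart. Groups follow the sample titles. The genotype field states the opposite for all 17 samples, and if it were right every direction below would turn round. Each library was a separate sample, and p-values measure the spread between these samples.

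Amino acids filtered at the glomerulus are taken back almost completely by the proximal tubule, through sodium-coupled carriers in the brush border and through exchangers and facilitated carriers in the basolateral membrane that hand them on to the blood. Several of these carriers work as pairs: Slc7 light subunits need the heavy subunit Slc3a1 or Slc3a2 to reach the membrane, and the brush border Slc6 carriers of neutral amino acids need collectrin (Cltrn). Other members of the Slc6 family carry taurine, betaine, creatine or GABA, and cells of the renal medulla use some of these solutes to balance the osmotic pressure around them.

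Transcripts were counted by 3′ end sequencing, which gives about 1 read for each transcript regardless of its length, so that levels in CPM (counts scaled to a common library size, with TMM factors) can be compared between genes. Libraries held 3256427 to 7627747 gene counts. The proximal tubule S1 and S2 markers, which check the tissue label, summed to 18235 to 27537 CPM in db/db and 15292 to 19803 CPM in db/m libraries. Adrenal markers summed to 0.828 to 3.17 CPM in db/db and 0.749 to 3.24 CPM in db/m libraries, and adipocyte markers to 9.73 to 188 CPM in db/db and 13.2 to 725 CPM in db/m libraries. One library, db/db replicate 8, stood apart from the rest at 79.2 on the first principal component of log2 CPM, which held 32.8% of the variance, and results on which it bears most are given with and without it. It had 22.02% mitochondrially encoded counts, the lowest of the 17 libraries. In bulk tissue, fewer cells of a type and less RNA per cell cannot be told apart.

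Slc6a19, Slc43a2, Slc38a2, Slc6a12, Slc6a8 and Slc6a13 were higher in db/db kidneys, and Slc1a4 and Slc6a9 were lower. Calls rest on the quasi-likelihood test of edgeR, adjusted by Benjamini-Hochberg over all 12131 genes tested, at an adjusted p under 0.05. The remaining 29 members were not called. Over all genes tested, 3.91% were called higher and 3.49% lower, and 7.39% in either direction. Among genes with a mean of at least 10 CPM, 7 of 24 members were called, against 8.65% of all such genes. All 37 members passed the low-count filter, but Slc6a12 reached 10 counts in 9 of 9 db/db and 4 of 8 db/m libraries, so it met the member rule only through the group where it was higher. Slc6a15 reached 10 counts in 4 db/db and 8 db/m libraries, so it too met the rule only through the group where it was higher.

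The median log2 fold change (db/db minus db/m throughout) was 0.04 over the members and 0.00 over all genes tested, and 23 members had a positive and 14 a negative value. The median size of the change regardless of sign was 0.34 on the log2 scale over the members and 0.20 over all genes tested. The summed level of the members was 3072 ± 172 CPM in db/db and 2648 ± 246 CPM in db/m libraries (SD, n = 9 and 8). Of the members, 13 averaged over 100 CPM and 13 under 10 CPM. The 5 most abundant, Slc6a18, Slc6a6, Slc3a2, Slc6a19 and Slc43a2, held 50.2% of the members' summed CPM.

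**Figure D1:**
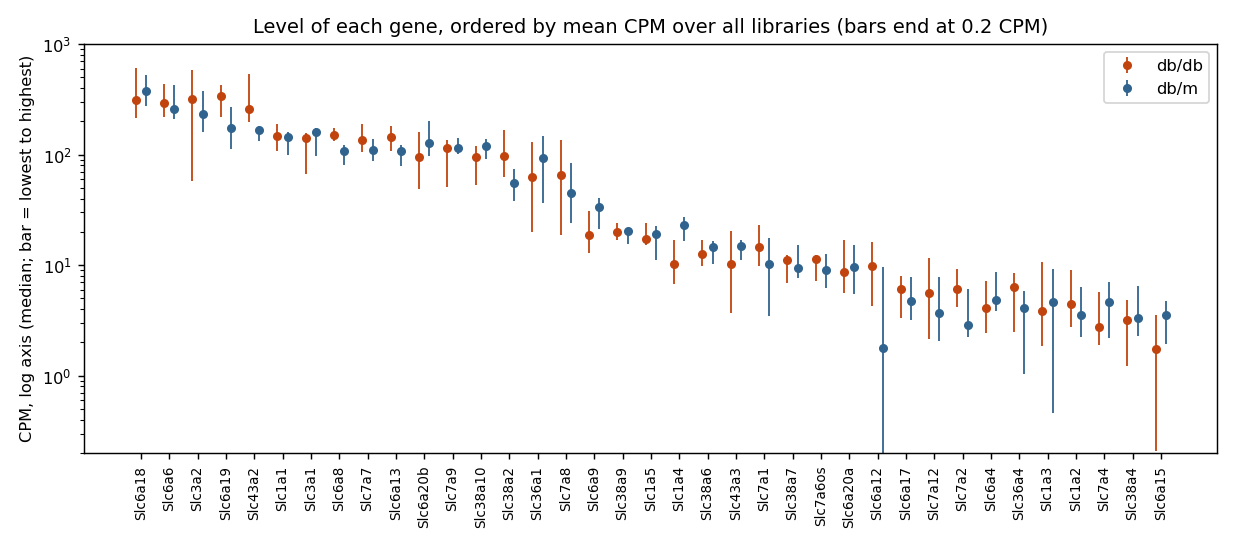
Median level of each of the 37 members in CPM on a log axis, with bars from the lowest to the highest library (bars end at 0.2 CPM), db/db left of db/m, ordered by the mean over all libraries. Slc6a18, Slc6a6 and Slc3a2 head the order, and Slc6a15 comes last.

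**Figure D2:**
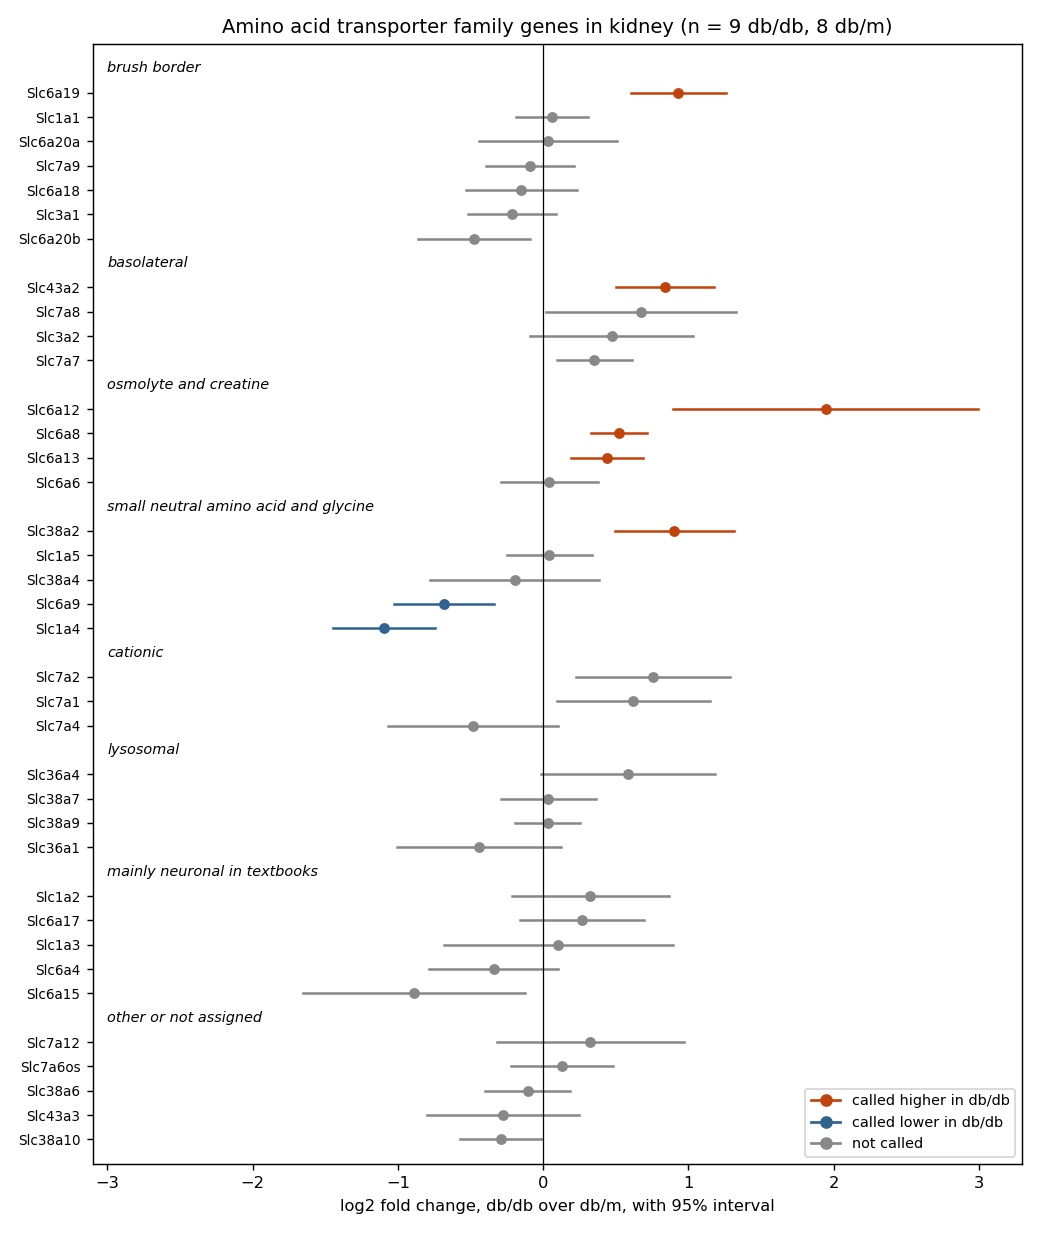
Log2 fold change of each member, db/db over db/m, with its 95% interval, grouped by role; called members are in colour and the others in grey. Slc6a12 has the largest positive value (1.94) and Slc1a4 the most negative (-1.09).

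In the brush border, Slc6a19 was the 1 member of 7 that was called. Slc6a19 is the main sodium-coupled carrier of neutral amino acids in the early proximal tubule, and its loss causes Hartnup disorder in humans. It had 218 to 425 CPM (median 342) in db/db and 113 to 268 CPM (median 175) in db/m libraries. In 8 of 9 db/db libraries it lay above the highest db/m library. The log2 fold change was 0.93 (SE 0.16, edgeR adjusted p = 0.000461), and without db/db replicate 8, its lowest db/db library, it was 0.99 (adjusted p = 0.000109). Among the S1 and S2 markers, 3 of 14 were called higher (among them Slc5a2 and Slc2a2) and none lower, with a median log2 fold change of 0.33, and none of the list was at 0. Their part in the Slc6a19 result was not tested.

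The neighbour of Slc6a19 on chromosome 13, Slc6a18, which in mice carries glycine and other small neutral amino acids, was the most abundant member. Slc6a18 had 212 to 612 CPM (median 310) in db/db and 278 to 527 CPM (median 378) in db/m libraries, with a log2 fold change of -0.15 (SE 0.18, 95% interval -0.53 to 0.23, edgeR adjusted p = 0.693). Its highest value belonged to db/db replicate 8, and without that library the log2 fold change was -0.29 (adjusted p = 0.311). Within a library, the log2 ratio of Slc6a19 to Slc6a18 averaged -0.05 ± 0.69 in db/db and -1.20 ± 0.55 in db/m libraries (SD, n = 9 and 8). This ratio was chosen after the values were seen and is given without a test; in 7 of 9 db/db libraries it lay above the highest db/m library.

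The other brush border members were not called. Slc3a1, the heavy subunit of the cystine and dibasic amino acid carrier, had 66.7 to 157 CPM (median 141) in db/db and 97.0 to 174 CPM (median 161) in db/m libraries, a log2 fold change of -0.21 (SE 0.15, edgeR adjusted p = 0.432). Its light subunit Slc7a9, which with Slc3a1 is mutated in human cystinuria, had 50.9 to 137 CPM in db/db and 100 to 141 CPM in db/m libraries (-0.09, adjusted p = 0.774). In db/db replicate 8 Slc3a1 and Slc7a9 were both at the lowest value of their group, and both values stood clear of the other 8 libraries. Without it, the log2 fold change was -0.13 for Slc3a1 (adjusted p = 0.548) and 0.01 for Slc7a9 (adjusted p = 0.981). Slc1a1, the glutamate and aspartate carrier, differed by 0.06 on the log2 scale (95% interval -0.19 to 0.31, adjusted p = 0.829).

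Slc6a20a and Slc6a20b are neighbouring close copies on chromosome 9, of which Slc6a20a carries proline and related imino acids. Reads may have been split between them, so their values are uncertain. Slc6a20b averaged 100 ± 30.8 CPM in db/db and 139 ± 37.5 CPM in db/m libraries (SD, n = 9 and 8; log2 fold change -0.48, edgeR adjusted p = 0.133). Its lowest db/db value, 49.1 CPM, was that of db/db replicate 8, and the other db/db libraries had 83.3 to 161 CPM. Without that library the log2 fold change of Slc6a20b was -0.38 (adjusted p = 0.153). Without db/db replicate 1 it was -0.58 with an adjusted p of 0.0308. With any 1 library left out it ran from -0.58 to -0.38, with adjusted p from 0.0308 to 0.282. Slc6a20a, at 9.76 ± 3.19 CPM in db/db and 9.55 ± 3.55 CPM in db/m libraries, had a log2 fold change of 0.03.

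In the basolateral membrane, Slc43a2 was higher in db/db kidneys without overlap between the groups, and all 4 members had a positive log2 fold change, with a median of 0.57. Slc43a2 is a facilitated carrier through which branched-chain and aromatic amino acids and methionine leave the cell. It had 196 to 539 CPM (median 258) in db/db and 133 to 181 CPM (median 166) in db/m libraries. The lowest db/db library was above the highest db/m library. Over all genes tested, 0.734% had groups that did not overlap in this direction, and among the members there were 2, Slc43a2 and Slc6a8. In the other direction there were none among the members, against 1.05% of all genes tested, and in either direction together 1.78% of all genes were free of overlap. The log2 fold change of Slc43a2 was 0.84 (SE 0.16, edgeR adjusted p = 0.00200), and without db/db replicate 8, which held the highest value, it was 0.67 (adjusted p = 0.000586).

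The heavy subunit Slc3a2 and its light subunits Slc7a7 and Slc7a8 were not called over the 17 libraries. Without db/db replicate 8 Slc3a2 was called, and Slc7a7 passed the threshold narrowly. Slc3a2 had 58.0 to 584 CPM (median 318) in db/db and 160 to 377 CPM (median 231) in db/m libraries, a log2 fold change of 0.47 (SE 0.27, edgeR adjusted p = 0.330). The value of 58.0 CPM belonged to db/db replicate 8, and the other 8 db/db libraries had 277 to 584 CPM. Without that library the log2 fold change of Slc3a2 was 0.62 (SE 0.17, adjusted p = 0.0244). Slc7a7, the light subunit that exports cationic amino acids and is mutated in lysinuric protein intolerance, averaged 142 ± 29.8 CPM in db/db and 111 ± 16.0 CPM in db/m libraries. Its log2 fold change was 0.35 (adjusted p = 0.0976), and without db/db replicate 8 it was 0.39 (adjusted p = 0.0493). In that library Slc7a7 had 112 CPM, within the 107 to 189 CPM of the other db/db libraries. Slc7a8, the light subunit for large and small neutral amino acids, had 18.8 to 135 CPM (median 65.3) in db/db and 24.3 to 84.7 CPM (median 45.1) in db/m libraries. Its log2 fold change was 0.67 (adjusted p = 0.222), and 0.81 without db/db replicate 8 (adjusted p = 0.0643). The 4 basolateral members together summed to 839 ± 149 CPM in db/db and 559 ± 98.0 CPM in db/m libraries.

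**Figure D3:**
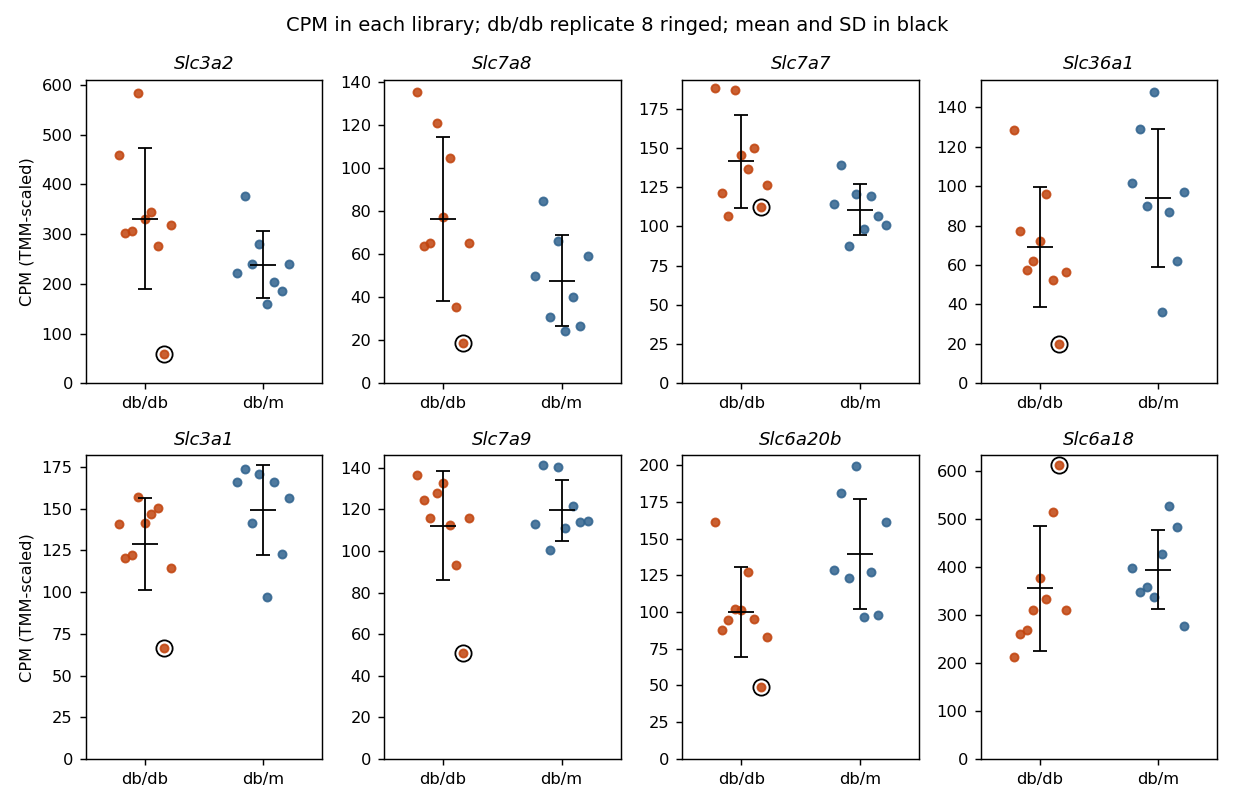
CPM of 8 members in each library, db/db left of db/m, with db/db replicate 8 ringed and the mean and SD of each group in black. The ringed point is the lowest of its group for Slc3a2, Slc7a8, Slc36a1, Slc3a1, Slc7a9 and Slc6a20b, the highest for Slc6a18, and lies among the others for Slc7a7.

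Of the carriers of organic solutes, Slc6a8, Slc6a13 and Slc6a12 were called higher, and Slc6a12 is among the members only through its db/db counts. Slc6a8, the creatine carrier, had 133 to 175 CPM (median 151) in db/db and 80.1 to 121 CPM (median 108) in db/m libraries. The groups did not overlap. The log2 fold change was 0.52 (SE 0.09, edgeR adjusted p = 0.000818), and permuting the group labels (exact test on mean log2 CPM, two-sided) gave p = 4.11e-05, the smallest this test can give here. Of the enzymes that make creatine, chosen after values were seen, Gatm averaged 95.5 CPM in db/db and 67.4 CPM in db/m libraries (adjusted p = 0.293) and Gamt 20.4 CPM in db/db and 21.7 CPM in db/m libraries (adjusted p = 0.790).

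Slc6a13 and Slc6a12 are neighbours on chromosome 6. Slc6a13, a GABA and betaine carrier found in proximal tubule and liver, had 108 to 182 CPM (median 146) in db/db and 79.1 to 122 CPM (median 107) in db/m libraries. In 6 of 9 db/db libraries it lay above the highest db/m library. The log2 fold change was 0.44 (SE 0.12, edgeR adjusted p = 0.0251); without db/m replicate 1 the adjusted p was 0.0527, and without db/m replicate 4 it was 0.0757.

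Slc6a12 carries betaine into cells of the medulla and papilla. It had 4.24 to 16.1 CPM (median 9.92) in db/db and 0 to 9.58 CPM (median 1.79) in db/m libraries. These levels rest on 428 counts over the db/db libraries and 105 counts over the db/m libraries, 2 of which were at 0. The groups overlapped through db/m replicate 8, which held 9.58 CPM. Its fitted log2 fold change of 1.94 (SE 0.50, 95% interval 0.90 to 2.99) had an edgeR adjusted p of 0.0196, and without db/m replicate 8 it was 2.64 (adjusted p = 0.000868).

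Markers of several distal tubule and collecting duct cells moved with Slc6a12, among them those of the principal cell. Of the 8 markers, 4 were called higher in db/db kidneys (Aqp2, Aqp3, Scnn1b and Scnn1g) and 1 lower (Aqp4), and none was at 0. The list summed to 674 to 1707 CPM in db/db and 313 to 1030 CPM in db/m libraries. The db/m library with the highest Slc6a12, replicate 8, also had the highest principal cell sum of its group, and the 2 db/m libraries where Slc6a12 was at 0, replicates 2 and 4, had sums of 400 and 313 CPM. The same db/m replicate 8 also had the highest adipocyte sum of its group (725 CPM, the others 13.2 to 131 CPM), the highest T, B and plasma cell sum (321 CPM, the others 19.6 to 63.0 CPM) and the highest fibroblast and mural sum (354 CPM), and the lowest sums of the other distal lists below. Of 8 distal convoluted and connecting tubule markers, 6 were called higher and none lower, with sums of 2450 to 4038 CPM in db/db and 1534 to 2178 CPM in db/m libraries. Of 7 intercalated cell markers, 4 were called higher and none lower, with sums of 279 to 370 CPM in db/db and 190 to 263 CPM in db/m libraries. The sums of both these lists did not overlap between the groups, and none of their markers was at 0. Of 7 thick ascending limb markers, 1 was called higher and 1 lower, with a median log2 fold change of 0.07. Their sums were 1303 to 3222 CPM in db/db and 1907 to 3868 CPM in db/m libraries, and none was at 0. The part of any of these lists in the Slc6a12 result was not tested.

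Slc6a6, the taurine carrier, was the second most abundant member and was not called. It had 219 to 437 CPM (median 295) in db/db and 211 to 425 CPM (median 258) in db/m libraries (log2 fold change 0.04, 95% interval -0.29 to 0.38, edgeR adjusted p = 0.917). Genes of the same osmotic response that are no members were added after values were seen. The inositol carrier Slc5a3 averaged 239 CPM in db/db and 250 CPM in db/m libraries (adjusted p = 0.912), aldose reductase Akr1b3 25.0 CPM in db/db and 10.2 CPM in db/m libraries (adjusted p = 0.190), and the tonicity factor Nfat5 34.5 CPM in db/db and 38.1 CPM in db/m libraries (adjusted p = 0.693).

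**Figure D4:**
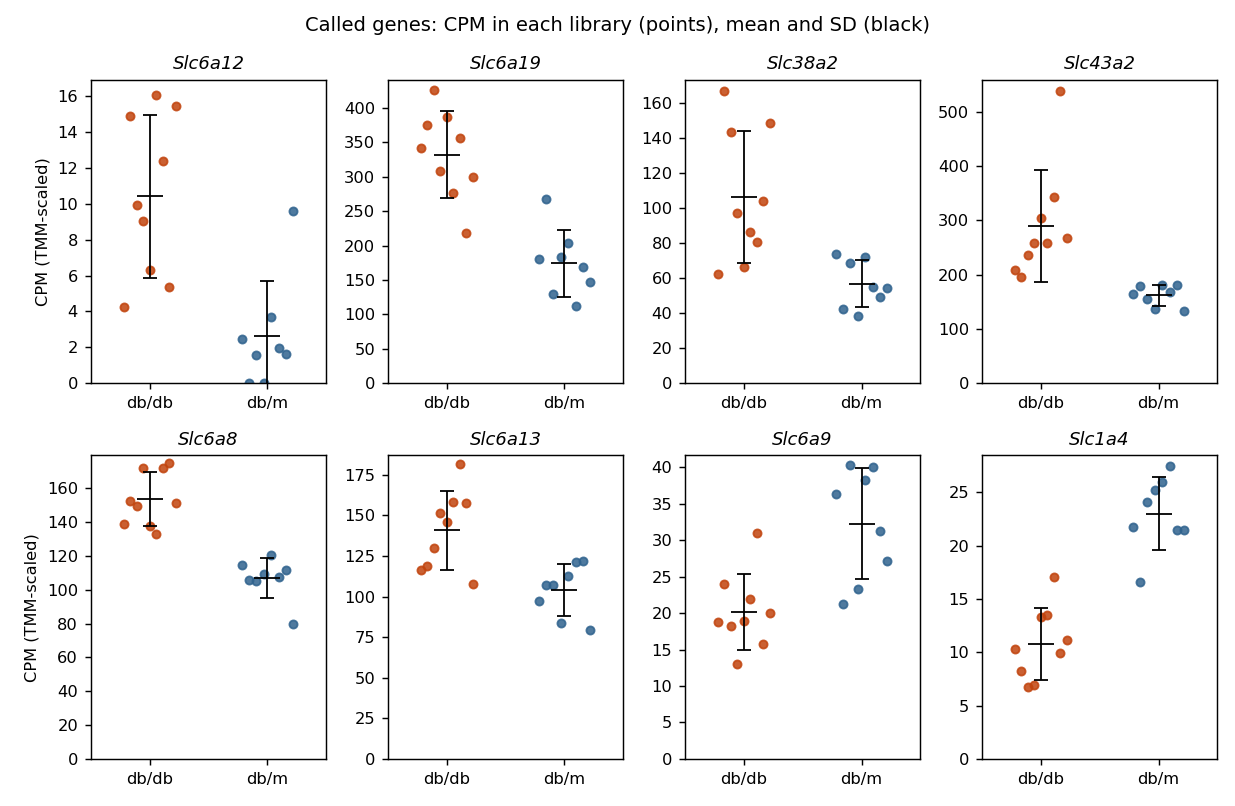
CPM of the 8 called members in each library (points), db/db left of db/m, with the mean and SD of each group in black. The db/db and db/m points of Slc43a2 and Slc6a8 do not overlap, and those of the other 6 members do.

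Among 5 carriers of small neutral amino acids and glycine, both directions occurred. Slc38a2, a sodium-coupled carrier of alanine, glutamine and other small neutral amino acids, had 62.3 to 167 CPM (median 97.5) in db/db and 38.2 to 73.9 CPM (median 54.8) in db/m libraries. In 7 of 9 db/db libraries it lay above the highest db/m library, and its log2 fold change was 0.90 (SE 0.20, edgeR adjusted p = 0.00567). Its neighbour on chromosome 15, Slc38a4, was near the lower end of the levels, at 3.03 ± 1.31 CPM in db/db and 3.52 ± 1.28 CPM in db/m libraries (log2 fold change -0.20, adjusted p = 0.742).

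Slc1a4, an exchanger of alanine, serine, cysteine and threonine, was the member with the largest fall. It had 6.76 to 17.03 CPM (median 10.3) in db/db and 16.6 to 27.4 CPM (median 22.9) in db/m libraries. In 8 of 9 db/db libraries it lay below the lowest db/m library, and its log2 fold change was -1.09 (SE 0.17, edgeR adjusted p = 0.000187). Slc6a9, a glycine carrier, had 13.0 to 31.0 CPM (median 18.9) in db/db and 21.2 to 40.2 CPM (median 33.8) in db/m libraries. The groups overlapped, and the log2 fold change was -0.68 (SE 0.17, adjusted p = 0.0126). Slc6a9 lies on chromosome 4, as does Lepr, and whether this bears on its fall was not tested. The glutamine exchanger Slc1a5, a close relative of Slc1a4, had 15.2 to 23.8 CPM in db/db and 11.2 to 22.6 CPM in db/m libraries (log2 fold change 0.04, adjusted p = 0.904).

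Markers of the S3 segment and male-biased genes moved with the falls of Slc1a4 and Slc6a9. Of 10 S3 markers, 6 were called lower and 1 higher, and their sum was 1826 to 2642 CPM in db/db and 3262 to 3743 CPM in db/m libraries. All 13 male-biased kidney genes were called lower, with a sum of 2113 to 6341 CPM in db/db and 19957 to 31080 CPM in db/m libraries. The S3 and male-biased lists share genes, so they are not independent. Of 5 female-biased genes tested, 2 were called higher and 2 lower. That list summed to 330 to 746 CPM in db/db and 59.5 to 274 CPM in db/m libraries. No gene of these lists was at 0, and their part in these falls was not tested. Of enzymes that use glycine, chosen after values were seen, Shmt1 averaged 57.4 CPM in db/db and 32.1 CPM in db/m libraries (adjusted p = 2.19e-05), Gldc 26.4 CPM in db/db and 11.04 CPM in db/m libraries (adjusted p = 0.0103), and Glyat 652 CPM in db/db and 677 CPM in db/m libraries (adjusted p = 0.870).

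None of the remaining members was called. Of the cationic amino acid carriers, Slc7a2 averaged 6.25 ± 1.80 CPM in db/db and 3.71 ± 1.65 CPM in db/m libraries (log2 fold change 0.75, edgeR adjusted p = 0.0779). Without db/m replicate 8 Slc7a2 had a value of 0.90 and an adjusted p of 0.0360, and without db/db replicate 8 a value of 0.72 (adjusted p = 0.0996). With any 1 library left out its value ran from 0.67 to 0.90, with adjusted p from 0.0360 to 0.148. Slc7a1 averaged 15.3 ± 4.47 CPM in db/db and 9.91 ± 4.60 CPM in db/m libraries (0.62, adjusted p = 0.156). Slc7a4, which is grouped with these carriers by sequence, had a log2 fold change of -0.48 (adjusted p = 0.339).

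Lysosomal carriers move amino acids between the lysosome and the cytosol, and Slc38a9 reports lysosomal arginine to mTORC1. Slc38a9 had 16.8 to 24.3 CPM in db/db and 15.7 to 21.9 CPM in db/m libraries, and its interval of -0.19 to 0.25 on the log2 scale was among the narrowest (adjusted p = 0.910). Slc36a1, a proton-coupled carrier, averaged 69.1 ± 30.4 CPM in db/db and 93.8 ± 35.0 CPM in db/m libraries (log2 fold change -0.44, adjusted p = 0.374), and its lowest value was again that of db/db replicate 8, at 19.9 CPM, without which the log2 fold change was -0.32 (adjusted p = 0.450). Slc38a7 had a log2 fold change of 0.03 and Slc36a4 one of 0.58 (adjusted p = 0.931 and 0.251).

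Members best known from nerve cells and glia were low. Slc6a17, Slc6a4, Slc1a3, Slc1a2 and Slc6a15 together summed to 21.6 ± 3.19 CPM in db/db and 22.01 ± 3.94 CPM in db/m libraries. The lowest of them, Slc6a15, averaged 1.88 ± 1.25 CPM in db/db and 3.47 ± 0.936 CPM in db/m libraries. Its log2 fold change of -0.89 (edgeR adjusted p = 0.160) was the most negative among uncalled members. However, Slc6a15 is among the members only through its db/m counts, which favoured that direction. The other 5 members, Slc38a10, Slc38a6, Slc43a3, Slc7a6os and Slc7a12, had log2 fold changes from -0.29 to 0.32.

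Over all 29 uncalled members, log2 fold changes ran from -0.89 to 0.75 with SEs of 0.11 to 0.38. The 95% interval lay within a 2-fold change in either direction for 21 of them, and within a 1.5-fold change for 12. For 8 of the 29 the interval reached past a 2-fold change. At an unadjusted p under 0.05, 7 uncalled members passed, but the share of all genes at that level was not computed. Slc7a2, 1 of the 29, was called by DESeq2. Over all 12131 genes tested, DESeq2 called 621 higher and 534 lower. Some well-known carriers were too scarce for a comparison: the leucine exchanger Slc7a5 had 44 counts over the db/db libraries and 47 over the db/m libraries, and the cystine exchanger Slc7a11 had 3 over the db/db libraries and 4 over the db/m libraries.

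Subunits were then set against their partners within each library, as 7 log2 ratios of counts with p-values adjusted over the 7. The ratio of Slc6a19 to its partner Cltrn averaged -0.94 ± 0.54 in db/db (range -1.95 to -0.12) and -1.96 ± 0.30 in db/m libraries (range -2.51 to -1.45; SD, n = 9 and 8). The groups overlapped, and the difference of 1.02 had an exact two-sided permutation p of 0.000535 (adjusted p = 0.00374). Cltrn itself averaged 639 ± 142 CPM in db/db and 660 ± 76.8 CPM in db/m libraries (log2 fold change -0.05, edgeR adjusted p = 0.880). Slc6a19 differed by 0.93 in these same libraries, so its ratio to Cltrn largely restates that difference and is not separate support for it. The ratios of Slc6a18, Slc6a20a and Slc6a20b to Cltrn differed by -0.13, 0.13 and -0.42, and those of Slc7a9 to Slc3a1, Slc7a7 to Slc3a2 and Slc7a8 to Slc3a2 by 0.09, 0.01 and 0.27. The adjusted exact permutation p of these 6 ratios ran from 0.349 to 0.986. In db/db replicate 8 the ratio of Slc7a7 to Slc3a2 was 0.95, the highest of the 17 libraries, and the highest db/m ratio was -0.70. Without that library the difference in this ratio was -0.24 (adjusted exact permutation p = 0.338), and that of Slc6a19 to Cltrn was 1.15 (adjusted exact permutation p = 0.00109). The ratios of Slc7a5 and Slc7a6 to Slc3a2 were not formed because these light subunits had too few counts.

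**Figure D5:**
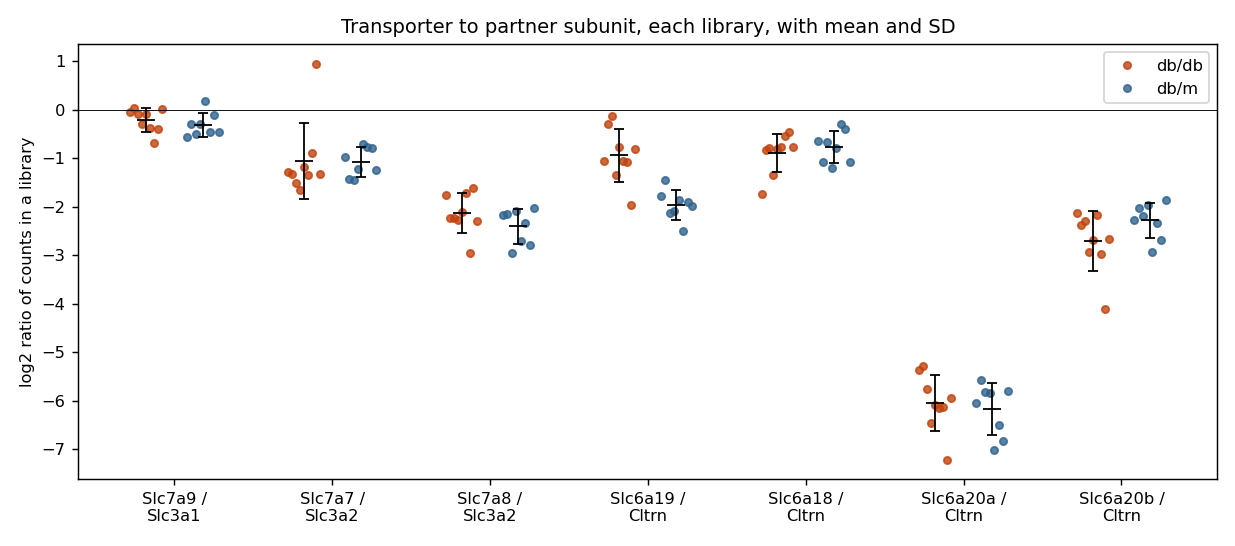
Log2 ratio of each transporter or light subunit to its partner in each library (points), db/db left of db/m, with the mean and SD of each group in black. The ratio of Slc6a19 to Cltrn is the 1 of 7 with an adjusted exact permutation p under 0.05, and it is not independent of the difference in Slc6a19 itself.

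Genes that act on amino acids beside these carriers were counted from lists chosen with earlier results of these data known. Of 20 tested genes of the amino acid response, which is driven by the transcription factor Atf4 when amino acids run short, none was called by edgeR and none by DESeq2, and 3 (Atf4, Cebpb and Gars) had an unadjusted p under 0.05; the median log2 fold change was 0.09. Of 26 genes of lysosomal amino acid sensing, 1 was called lower, the kinase Mtor, at 74.0 CPM in db/db and 125 CPM in db/m libraries (log2 fold change -0.76). Of 12 genes of glutathione and cystine use, 3 were higher (Dpep1 by 0.63, Srxn1 by 0.56 and Nqo1 by 0.74 on the log2 scale), and 2 were lower, both subunits of the enzyme that starts glutathione synthesis (Gclc at -0.49 and Gclm at -0.91). Of 17 other amino acid and peptide carriers, 2 were higher and 2 lower, with a median of 0.13. Those higher included the lysosomal cystine exporter Ctns (0.63). Of 5 trafficking partners of brush border carriers, 1 was lower: Ace, the angiotensin-converting enzyme, at 8.96 CPM in db/db and 28.1 CPM in db/m libraries (-1.65), without overlap between the groups.

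Promoter sequence from RefSeq (build GRCm38.p6), from 250 bases before to 50 after the start of transcription, was matched for 28 of the 37 members. It was searched on both strands for 3 short motifs, and the stretches below are shown because they belong to called members and hold one. The CCAAT/enhancer-ATF response element, bound by Atf4 and its partners, was searched as TGATGNAA and was found in 2 of 28 members (Slc1a4 and Slc7a7) and in 4.51% of all 27025 genes with a window. The core of the antioxidant response element was searched as TGACNNNGC and was found in 5 of 28 members (Slc36a1, Slc38a2, Slc6a13, Slc6a9 and Slc7a1) and in 13.99% of all genes. The HNF1 half-site was searched as GTTAAT and was found in 5 of 28 members (Slc36a1, Slc3a1, Slc6a13, Slc6a20a and Slc7a7) and in 8.24% of all genes. A gene could have several windows, and a motif in any of them counted. The 28 members had 46 windows and all 27025 genes had 32851, so more sequence was searched per member. Each stretch is written 5′ to 3′ along the gene's strand with the motif in capitals. For Slc1a4, within the window chr11:20332664-20332963 (minus strand), the capitals hold the response element on the opposite strand. For Slc38a2, within chr15:96699679-96699978 (minus strand), and for Slc6a9, within chr4:117849100-117849399 (plus strand), they hold the antioxidant core. For Slc6a13, within chr6:121300490-121300789 (plus strand), they hold the HNF1 half-site on the opposite strand.
Slc1a4: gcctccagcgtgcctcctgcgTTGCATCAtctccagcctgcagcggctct
Slc38a2: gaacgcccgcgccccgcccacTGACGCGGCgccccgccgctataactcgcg
Slc6a9: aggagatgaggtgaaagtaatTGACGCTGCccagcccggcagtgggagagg
Slc6a13: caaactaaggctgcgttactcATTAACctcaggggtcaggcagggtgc
Members with an antioxidant core differed in direction: Slc38a2 and Slc6a13 were higher in db/db kidneys and Slc6a9 was lower, while Slc36a1 (-0.44) and Slc7a1 (0.62) were not called. A match in these letters is a description and does not show that a factor binds there.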

How the data were processed

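Per the submitters' processing notes, the authors aligned reads of QuantSeq 3′ forward libraries with STAR 2.7.3a and counted them with HTSeq 2.16.2, and deposited raw counts. The notes list GRCh38 although the identifiers are mouse. Mouse build, strand setting and use of molecular identifiers were not given in the sources used here. Although the tissue field gives kidney, the protocol also mentions plated cells. Reads outside genes (19.3%) and ambiguous reads (0.533%) stayed out of library sizes and tests.

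Counts of 9 db/db and 8 db/m libraries were fitted with edgeR 4.0.16 in R 4.3.3 (quasi-likelihood F-test, no covariate) after filterByExpr with a minimum count of 10, with TMM scaling and Benjamini-Hochberg adjustment over 12131 genes. The fit was tested on simulated data. An SE was computed as the absolute log2 fold change over the root of F, and intervals are at the 95% level. Log2 CPM used a prior count of 2. Ratios added 0.5 to each count and were compared by exact two-sided permutation of the group labels. DESeq2 1.42.0, limma 3.58.1 (voom), other scalings and leaving out libraries were alternatives.

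The members and lists were chosen with earlier results of these data known. Genes given in full were the called members, the 3 most abundant uncalled members and the partners in the ratios, with called genes of the lists named beside them. Symbols were matched for 55141 identifiers. Libraries of a group always differed by more than sampling noise (chi-square over degrees of freedom at least 3.57), so none was a copy. Some items of the lists and labels are not reported here.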

Additional observations from a re-analysis of the deposited data

Results flagged for a closer look

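In each group, the highest and lowest library was compared with the others by Dixon's ratio on log2 CPM. Of 74 groups searched, 10 held a value beyond the 95% limit, and chance flags about 1 in 20 groups. In db/db kidneys, 4 of these values came from db/db replicate 8: Slc3a2 at 5.87 (58.0 CPM, the others 277 to 584), Slc36a1 at 4.34 (19.9 CPM, the others 52.3 to 129), Slc3a1 at 6.07 (66.7 CPM, the others 114 to 157) and Slc7a9 at 5.68 (50.9 CPM, the others 93.2 to 137). This library was the lowest of its group for 13 and the highest for 3 of the 37 members, against 4.11 members for an even share, and db/db replicate 1 was the lowest for 7 and the highest for 11. The remaining db/db value was Slc38a7 in replicate 1, at 2.88 (6.92 CPM, the others 9.29 to 12.4).

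In db/m kidneys, replicate 8 was low for Slc1a1 at 6.63 (98.6 CPM, the others 132 to 161) and for Slc6a8 at 6.33 (80.1 CPM, the others 105 to 121). Slc1a3 was low in replicate 5 at -0.16 (0.463 CPM, the others 2.996 to 9.19) and Slc1a5 in replicate 2 at 3.54 (11.2 CPM, the others 16.9 to 22.6). Slc38a4 was high in replicate 7 at 2.80 (6.53 CPM, the others 2.30 to 3.47).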

How the results depend on the processing

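The count of members called higher was 6 and ran from 5 to 8 when 1 library was left out, and the count called lower was 2 and ran from 2 to 3. None of the 8 called members changed sign under 28 alternatives, while 8 uncalled members did under at least 1. Leaving out db/db replicate 9 and taking replicates 1 to 8 with no block for replicate are the same fit. That fit is counted more than once among the 28 and in the values that follow. Of 1036 member values recomputed, 14 crossed the threshold and none reversed a called direction. Both libraries numbered 8 left out together gave Slc3a2 an adjusted p of 0.0316, Slc7a2 one of 0.0432 and Slc6a13 one of 0.0671. DESeq2 gave Slc7a2 an adjusted p of 0.0426, and scaling by total counts only gave Slc7a7 one of 0.0488.

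Same-numbered libraries did not deviate together (correlations from -0.45 to 0.21). This gave no sign that the numbers pair the samples, but low correlations cannot exclude a pairing. With the replicate block over replicates 1 to 8, 3 members were called higher, against 6 in these libraries without the block; Slc38a2, Slc6a12 and Slc6a13 had adjusted p of 0.0713, 0.0940 and 0.0507. Under the block, the Slc6a19 to Cltrn ratio differed by 1.01 (adjusted exact permutation p = 0.0547, where 8 pairs and 7 ratios could not give a lone ratio a smaller value), and with 1 library left out by 0.92 to 1.15. Over all genes, 194 were called higher and 231 lower under the block, against 380 and 352 in the same libraries without it and 474 and 423 in the 17 libraries. With 1 library left out, the extremes were 666 higher and 571 lower without db/db replicate 1, and 319 higher and 318 lower without db/m replicate 4.

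Counting error is largest for scarce members, 13 of which averaged under 10 CPM, but SEs did not follow the level alone: they were 0.50 for Slc6a12, 0.31 for Slc7a8, 0.27 for Slc3a2 and 0.21 for Slc6a17.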
